A study of Mus musculus with 4 samples.

Results

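The comparison described here sets 2 arrays of induced regulatory T cells (iTreg), one cultured with vitamin C and one cultured without it (conventional iTreg), against 1 array of naive CD4 T cells, the cell type from which both cultures were started. A gene entered the comparison if any of the 3 arrays detected its probe, at a detection p-value below 0.01, and it was counted as higher or lower only where both iTreg arrays differed from the naive array in the same direction. Of 16590 genes with a named probe, 8074 met the detection rule. On the iTreg arrays, 7114 of these lay on the same side of the naive array, 3111 above it and 4003 below it. At a limit of 2-fold on each iTreg array, 944 genes were higher, which is 11.7% of the 8074, and 1059 were lower, which is 13.1%.

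RNA was measured on Illumina bead arrays, on which the brightness of a probe rises with the amount of its transcript in the labelled sample. All cells came from male Foxp3-GFP transgenic mice (B6.Cg-Foxp3tm2Tch/J), in which green fluorescent protein (GFP) marks cells that express Foxp3. Vitamin C iTreg were grown from sorted naive cells (CD4+, GFP-, CD44low) for 5 to 6 days with antibodies to CD3 and CD28 at 1 µg/ml each, interleukin 2 (IL-2) at 15 ng/ml, TGF-beta at 10 ng/ml and vitamin C at 10 µg/ml. GFP+ CD25+ cells were then sorted from the culture. Conventional iTreg had the same culture and sort without vitamin C. Naive CD4 cells were CD4+, CD8-, GFP- and CD44low cells sorted directly from lymph node and spleen. The series has 4 arrays, 1 for each group, and the remaining array held natural Treg sorted ex vivo as GFP+ cells. Neither the age of the mice nor the number of mice behind each array is given in the sources used here. With 1 array per group there is no replicate check, so no p-value, SD or count of statistically changed genes is given. Stimulation, days in culture, the induction of Foxp3 and the second sort all differ between either iTreg group and the naive group, and they cannot be told apart here.

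Naive CD4 T cells are small resting cells that circulate through lymph nodes and keep a program of quiescence held by factors such as KLF2, FOXO1 and the IL-7 receptor. Stimulation through the T cell receptor and CD28 brings them into the cell cycle and increases glucose uptake, lipid synthesis and protein synthesis. With TGF-beta and IL-2 present, part of the stimulated cells induce Foxp3, the transcription factor that defines regulatory T cells, which restrain immune responses. Vitamin C is a cofactor of the TET enzymes, which oxidize 5-methylcytosine, among them the methylated cytosines of the Foxp3 locus.

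Signals are given below as background-corrected, quantile-normalized log2 values, on which a step of 1 is a 2-fold difference. A probe's signal is compared across arrays only, never with that of another probe. Where an array did not detect a gene, the fold is a lower bound computed against the lowest detected signal of that array, which was 6.19 on the vitamin C array, 6.16 on the conventional array and 6.65 on the naive array. The vitamin C array detected 7547 genes, the conventional array 7603 and the naive array 7027, and 6587 genes were detected on all 3. Deposited intensities had medians of 156.5 on the vitamin C array, 143.6 on the conventional array and 132.3 on the naive array before normalization.

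The labels were first set against defining markers. The iTreg were sorted as GFP+ CD25+ and the naive cells as GFP-, so Foxp3 and Il2ra are not independent of the sorts. Foxp3 had a log2 signal of 8.05 on the vitamin C array and 8.27 on the conventional array, and it was not detected on the naive array. The natural Treg array gave 8.09 for the same probe. Foxp3 was therefore at least 2.65-fold higher on the vitamin C array and at least 3.07-fold higher on the conventional array than on the naive array. This call rests on a dim probe. In the authors' normalized values, made from the deposited intensities with no further background correction, the bounds were 0.87 and 1.03 in log2, and the mean over the Foxp3 probes gave a bound of 0. Il2ra, which encodes the IL-2 receptor alpha chain CD25 used in the iTreg sort, had 13.38 on the vitamin C array and 13.32 on the conventional array, and was not detected on the naive array. Of 14 T cell identity genes, 10 had a named probe, and all 10 were detected on each of the 3 arrays, 9 of them below the naive level on both iTreg arrays and 2 by at least 2-fold. Ikzf2, which encodes Helios, was not detected on the 3 arrays.

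Markers of other cells gave the following counts. Of 13 B cell markers with a probe, 2 were detected on each iTreg array and 3 on the naive array. Cd79a, Ms4a1, Pax5 and Ebf1 were not detected on the 3 arrays. The MHC class II genes Cd74 and H2-Ab1 accounted for both detected markers on the iTreg arrays. Cd74, the invariant chain, had 11.26 on the vitamin C array and 11.56 on the conventional array, against 8.75 on the naive array. Of 12 myeloid markers, 3 were detected on each array. Lyz1 was detected on the naive array alone, at 7.78, and Cst3 had 12.54 and 12.28 on the vitamin C and conventional arrays, against 11.08 on the naive array. Of 8 CD8 T and NK cell markers, 3 were detected on each iTreg array and 2 on the naive array. Cd8a was detected on none of the 3 arrays, whereas Cd8b1 had 10.90 on the vitamin C array and 10.34 on the conventional array, against 11.97 on the naive array. Of 6 erythroid and platelet markers, the naive array detected Hba-a1, an alpha globin gene, at 9.10, and neither iTreg array did. Summed over the detected markers, the normalized signal of the B cell list was 3750 on the vitamin C array and 4480 on the conventional array, against 995 on the naive array. For the myeloid list it was 6790 and 5500, against 3090 on the naive array, and for the CD8 T and NK cell list 4510 and 9500, against 5890. These sums cover different members on different arrays. In the CD8 T and NK cell list Nkg7 was detected on the iTreg arrays alone. The other detected members, Cd8b1 and Klrd1, were at least 2-fold lower on both iTreg arrays. The part of such RNA in the results below was not tested.

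The 944 higher genes had a median log2 difference of 2.09 on the vitamin C array and 2.07 on the conventional array. For 366 of them the naive array did not detect the gene, so that the difference is a bound. At least 4-fold was reached by 439 genes, 8-fold by 209, 16-fold by 103 and 32-fold by 39. The 1059 lower genes had medians of -1.61 on the vitamin C array and -1.52 on the conventional array, and fewer of them were far from the naive array. Of the lower genes, 252 reached 4-fold, 71 reached 8-fold, 26 reached 16-fold and 6 reached 32-fold. Both iTreg arrays failed to detect 184 of the lower genes, and 1 of the 2 failed to detect another 56. Among all genes compared, the median log2 difference was -0.09 on the vitamin C array and -0.08 on the conventional array. Just above the 2-fold limit, within 0.1 in log2, lay 93 higher and 157 lower genes, and just below it lay 94 and 200.

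The separate comparisons with the naive array, which share that array, had slightly more genes. Vitamin C iTreg had 1098 genes at least 2-fold higher (13.8% of 7945) and 1268 lower (16%). Conventional iTreg had 1051 higher (13.2% of 7963) and 1174 lower (14.7%). Of the 2003 genes called on both, 1628 had iTreg signals within 1.5-fold of each other and 55 had signals at least 2-fold apart. Neither iTreg array detected 184 of the 2003, and these entered neither count. For another 56, 1 iTreg array did not detect the gene, so the difference between the iTreg arrays is a lower bound. A second probe could check 519 of the called genes. In 475 of these every other detected probe lay on the same side of the naive array in both comparisons, and in 313 every other probe also reached 2-fold. None had a probe that was 2-fold in the opposite direction. Averaging all probes of a gene moved 40 of 193 named genes by over 1.5-fold, and some of these are given with both values.

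The genes with the highest ratio to the naive array among those detected on all 3 came from several functions. Prnp, which encodes the prion protein, had 14.48 on the vitamin C array and 14.77 on the conventional array, against 7.70 on the naive array, or 109-fold and 134-fold. Ctla4, the inhibitory receptor of regulatory T cells, had 14.04 and 13.97 on the vitamin C and conventional arrays, against 8.80 on the naive array. Axl, a receptor tyrosine kinase, had 14.38 and 14.13, against 8.94 on the naive array. For these 3 genes the iTreg arrays lay close together, while the distance from the naive array follows from the ranking. Rgs16, a regulator of G protein signalling, was 36.1-fold higher on the vitamin C array and 79.1-fold higher on the conventional array. Its signals of 11.87 and 13 on the iTreg arrays differed by more than those of any other gene in this group. Denn2b, Slc9b2, Pclaf, Nusap1, Hk2, Gabarapl1, Birc5 and Anxa2 completed the 12, with ratios between 29.7-fold and 57.9-fold. The other detected Nusap1 probes gave differences of 0.54 or less, so its size rests on 1 probe.

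Larger ratios came from genes that the naive array did not detect. Mt1, a metallothionein that binds zinc and copper, had 15.16 on the vitamin C array and 15.00 on the conventional array, at least 365-fold and 326-fold above the naive array. Socs2, a STAT5-induced inhibitor of cytokine signalling, had 14.68 on each iTreg array, at least 262-fold above the naive array in both. The iTreg arrays again lay close together. Emp1, Lgals3 (galectin-3), Igfbp7 and Bdh2 followed, each at least 113-fold higher on both iTreg arrays. With its probes averaged, Igfbp7 differed by 2.80 and 2.38 in log2, in place of 7.51 and 6.82. Lgals3 had 14.37 on the vitamin C array and 13.92 on the conventional array.

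**Figure D1:**
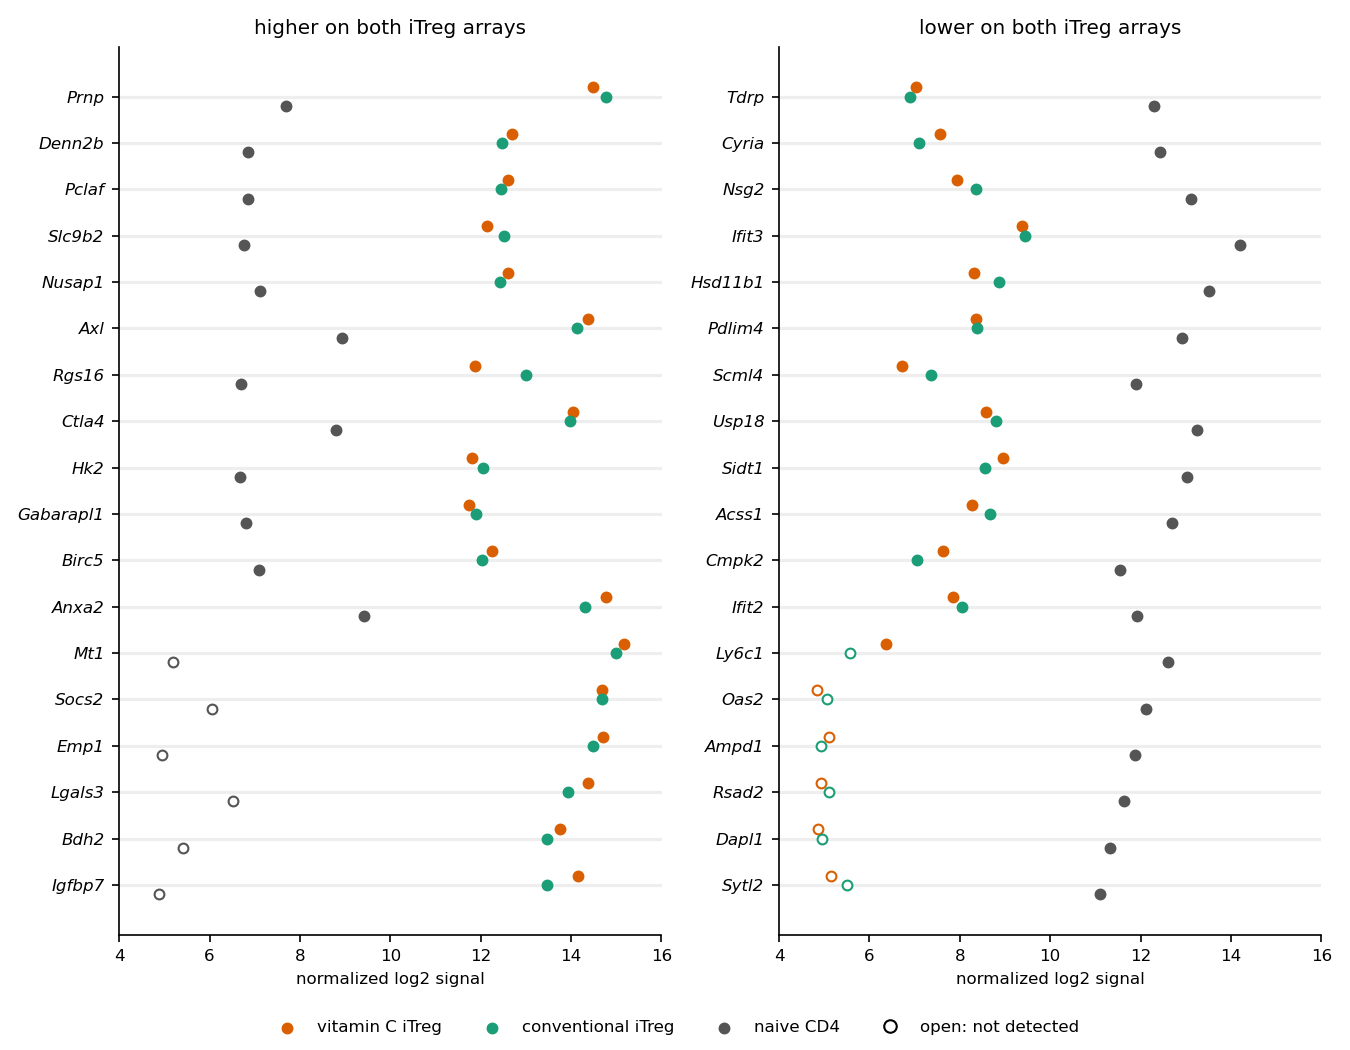
Normalized log2 signal (horizontal axis) of the 18 genes with the largest ratios in each direction, on the vitamin C iTreg, conventional iTreg and naive CD4 arrays, with open points where a gene was not detected. Genes were ranked by the smaller of their differences from the naive array, which sets both iTreg points far from it. Rgs16 has iTreg signals of 11.87 and 13.

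At the lower end, Tdrp had 7.03 in vitamin C iTreg and 6.89 in conventional iTreg, against 12.29 in naive cells, ratios of 38.5-fold and 42.4-fold downward. Cyria, a RAC1-binding protein of the actin cytoskeleton, had 7.56 and 7.09, against 12.43 on the naive array. Hsd11b1, which regenerates active glucocorticoid from its inactive form, had 8.31 and 8.87, against 13.51 on the naive array. That both iTreg signals lay far below the naive signal follows from the ranking by the smaller difference. Nsg2, Scml4, Pdlim4, Sidt1 and Acss1, a mitochondrial acetyl-CoA synthetase, were 16.3-fold to 36.5-fold lower across both iTreg arrays. The other 4 of the 12 lowest, Ifit3, Usp18, Cmpk2 and Ifit2, are interferon-stimulated genes. Among genes that an iTreg array did not detect, Ly6c1 stood lower by 75.8-fold in vitamin C iTreg, which detected it at 6.36, and by at least 87.0-fold in conventional iTreg. Its probe may also bind the RNA of the near-identical Ly6c2. Ampd1, the muscle-type AMP deaminase, Sytl2 and Dapl1 were at least 30.0-fold lower on both arrays. The size for Sytl2 rests on 1 probe, since the mean over its probes gave -1.34 and -1.37 in log2. In bulk samples such as these, fewer cells of a type and less RNA per cell cannot be told apart.

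Genes were then grouped by role. Each count below is to be read beside the shares of all genes compared, 11.7% higher and 13.1% lower on both iTreg arrays. Of 25 Treg signature genes with a probe, 6 were not detected on the 3 arrays. Of the 19 compared, 16 were higher on both iTreg arrays and none was lower, and all 19 lay above the naive array. For 4 of the 16 the naive array did not detect the gene, so the difference is a bound and could not have been lower. In every list, a member not detected on the naive array could not be lower, and one detected there alone could not be higher. Il2ra, whose protein was a criterion of the iTreg sort, is among the members. GFP, which marks Foxp3 expression, was also a criterion, with iTreg sorted as GFP+ and naive cells as GFP-. Some genes, such as Socs2, count in more than 1 list. The median log2 difference was 4.19 on the vitamin C array and 3.89 on the conventional array. Nrp1, which encodes neuropilin-1, had 12.05 on the vitamin C array and 12.88 on the conventional array, against 7.43 on the naive array. Nt5e, the ecto-nucleotidase CD73, had 14.73 and 14.69, against 10.08 on the naive array. Ikzf4, which encodes the Foxp3 partner Eos, had 11.68 and 11.85, against 8.46 on the naive array. Both cultures thus gave values well apart from the naive array for Nrp1, Nt5e and Ikzf4. Ebi3, a subunit of IL-35, was not detected on the naive array and had 9.26 on the vitamin C array and 10.10 on the conventional array. Izumo1r, Swap70 and Gpr83 stayed under 2-fold on at least 1 iTreg array.

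**Figure D2:**
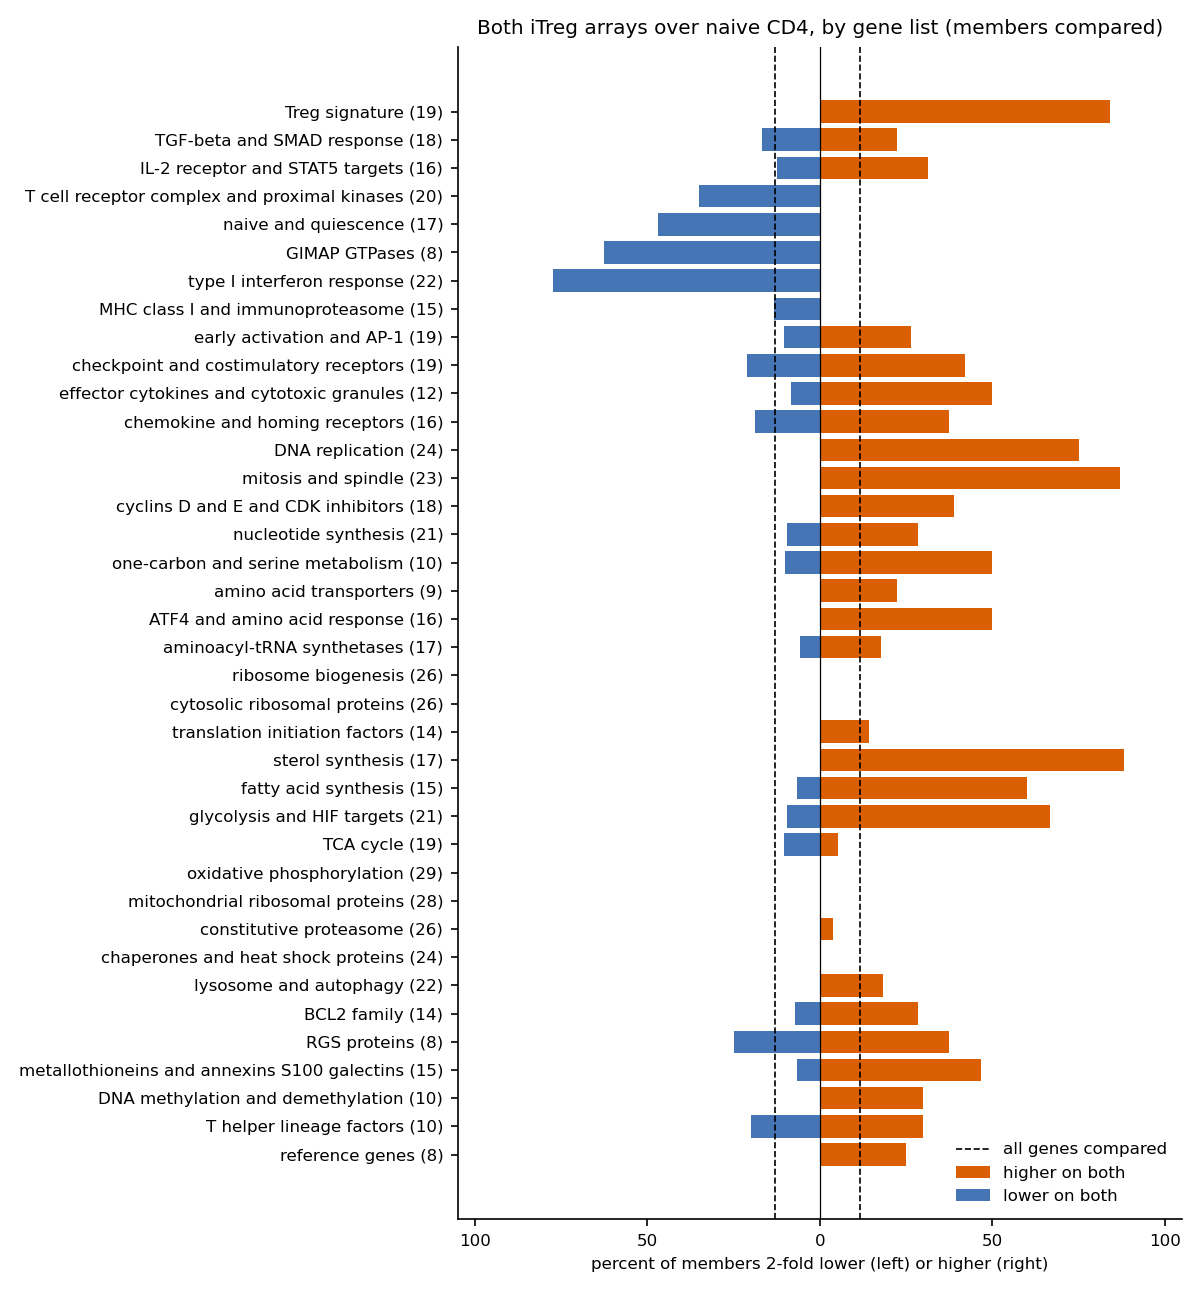
Percent of the compared members of each gene list that were at least 2-fold higher (right, orange) or lower (left, blue) on both iTreg arrays than on the naive CD4 array, with the number of members in brackets. Dashed lines mark all genes compared, 11.7% higher and 13.1% lower, and the sterol list reaches 15 of 17 higher while the interferon list reaches 17 of 22 lower.

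Receptors and signals of IL-2 and TGF-beta, the cytokines of the culture, were mixed. Of 16 genes of the IL-2 receptor and STAT5 list, 5 were higher and 2 lower, the latter near the 13.1% of all genes compared. Il2ra was at least 106-fold higher on the vitamin C array and 102-fold higher on the conventional array, and Il2rb, the beta chain of the receptor, at least 7.97-fold and 6.56-fold. Cish, a STAT5 target that dampens cytokine signalling, had 14.83 and 14.88 on the vitamin C and conventional arrays, against 10.63 on the naive array. The kinase gene Jak1 was lower by 4.75-fold in vitamin C iTreg and 4.35-fold in conventional iTreg, and Socs3 by 2.99-fold and 3.09-fold. Of 18 genes of the TGF-beta and SMAD list, 4 were higher and 3 lower, against 11.7% and 13.1% of all genes compared. Itgae, the integrin CD103 that TGF-beta induces, had 11.07 and 10.85, against 6.69 on the naive array. Among the receptors, Tgfbr1 was 2.62-fold and 3.24-fold higher on the vitamin C and conventional arrays, although not with its probes averaged. Tgfbr2 was 2.84-fold and 2.34-fold lower, and the co-receptor Tgfbr3 was 13.2-fold and 15.8-fold lower. Id1 was higher and Id3 lower on both, with Id3 at 6.36 and 6.95 on the iTreg arrays, against 9.17 on the naive array. The median of the TGF-beta list was 0.00 on the vitamin C array and 0.17 on the conventional array, and its sign changed with the processing.

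The T cell receptor complex and its proximal kinases were lower or near the naive level. Of 20 genes compared, 7 were at least 2-fold lower on both iTreg arrays and none was higher, with medians of -0.82 on the vitamin C array and -0.83 on the conventional array. Cd247, the zeta chain that carries most signalling motifs of the complex, had 8.75 and 8.82, against 11.76 on the naive array. Themis, a signalling adaptor of thymocytes, was not detected on the vitamin C array and had 6.63 on the conventional array, against 9.63 on the naive array. Cd3d, by comparison, had 14.57 and 14.55, against 14.85 on the naive array, so members of the same complex differed in their ratios. Prkcq and Trat1 were each between 2.36-fold and 3.20-fold lower.

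Genes of the resting state were in part lower. Of 17 naive and quiescence genes compared, 8 were at least 2-fold lower on both iTreg arrays and none was higher, and the medians were -0.97 on the vitamin C array and -0.93 on the conventional array. Il7r, the receptor for the survival cytokine IL-7, had 9.05 on the vitamin C array and 10.12 on the conventional array, against 13.84 on the naive array. Lef1, a TCF family factor of naive cells, had 7.61 and 8.18, against 11.15 on the naive array. Satb1, a chromatin organizer of T cells, had 12.33 and 12.89, against 15.47 on the naive array. In these 3 genes the vitamin C array was the lowest of the 3. Of the 16 members with a difference between the iTreg arrays, 15 were lower on the vitamin C array. Klf2 was 11.84 and 12.62 on the vitamin C and conventional arrays, against 13.73 on the naive array, whereas Ccr7, the lymph node homing receptor, was 11.56 and 11.73, against 11.64 on the naive array. Of the 8 GIMAP genes, GTPases of lymphocyte survival, 5 were lower, with medians of -2.01 on the vitamin C array and -1.92 on the conventional array. Gimap7 was 13.8-fold and 10.5-fold lower, and Gimap8, Gimap5 and Gimap6 were each between 3.82-fold and 5.14-fold lower. With its probes averaged, Gimap5 differed by -1.32 and -1.22 in log2, in place of -2.11 and -1.97.

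Interferon-stimulated genes were lower on both iTreg arrays. All 22 genes of the type I interferon list lay below the naive array on both iTreg arrays, and 17 of them by at least 2-fold on each. For 6 of the 17 at least 1 iTreg array did not detect the gene, so a difference is a bound and could not have been higher. The median log2 difference was -2.66 on the vitamin C array and -2.69 on the conventional array. Type I interferon acts on its target genes through the interferon-stimulated response element (ISRE) in their promoters. Oas2, an RNA sensor, and Rsad2, the antiviral protein viperin, were detected on the naive array at 12.11 and 11.64 and on neither iTreg array. Ifit3 had 9.37 on the vitamin C array and 9.44 on the conventional array, against 14.20 on the naive array. Usp18, which removes ISG15 from proteins and blunts the receptor, had 8.58 and 8.81, against 13.25 on the naive array. Isg15 had 8.33 and 8.34, against 11.81 on the naive array, and Irf7, the factor that amplifies the response, had 8.05 and 8.06, against 11.65. The 2 cultures were thus nearly equal for these genes. Parp14 and Irf9 lay closest above the 2-fold limit, and Stat2, Bst2, Ifi27l2a, Isg20 and Ifih1 did not reach it on both arrays.

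The promoters of Rsad2 and Ifit3, the highest-ranked interferon genes that hold the ISRE letters, are shown because both genes were far higher on the naive array. Each window runs from 250 bases before to 50 bases after the start of the gene (RefSeq, GRCm38.p6), 5′ to 3′ on the strand of the gene, with capitals on matches, on either strand, to GAAA followed by any 2 bases and a further GAAA.
Rsad2, chr12:26456403-26456702, minus strand: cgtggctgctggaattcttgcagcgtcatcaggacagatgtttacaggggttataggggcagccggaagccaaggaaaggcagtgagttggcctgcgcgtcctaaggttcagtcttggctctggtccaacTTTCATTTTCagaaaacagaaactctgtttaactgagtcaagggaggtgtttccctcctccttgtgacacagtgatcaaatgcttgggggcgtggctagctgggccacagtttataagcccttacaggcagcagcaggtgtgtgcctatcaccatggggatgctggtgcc
Ifit3, chr19:34583279-34583578, plus strand: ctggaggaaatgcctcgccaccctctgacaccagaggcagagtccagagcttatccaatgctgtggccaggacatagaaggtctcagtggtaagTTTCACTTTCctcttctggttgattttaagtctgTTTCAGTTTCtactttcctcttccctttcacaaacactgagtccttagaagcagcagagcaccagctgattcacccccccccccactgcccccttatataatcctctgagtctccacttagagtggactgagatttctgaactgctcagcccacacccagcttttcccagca
The match of Rsad2 began 120 bases before the start, and those of Ifit3 began 156 and 122 bases before it. Of 14 interferon list genes with a window, 8 held a match, or 57.1%. The share was 3.94% among the 6693 compared genes with a window and 3.44% among all 32851 windows of the table. A gene counted once if any of its windows held the letters. A match is a description of the letters and not evidence of binding.

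MHC class I genes differed from the interferon list. Of 15 genes of MHC class I presentation and the immunoproteasome, 2 were lower on both iTreg arrays and none was higher. That is near the 13.1% of all genes compared that were lower. The list medians were -0.02 on the vitamin C array and -0.52 on the conventional array. One of the 2, Erap1, had bounds of -1.44 and -1.47 in log2, which were 0.0 with its probes averaged. H2-K1 had 9.65 and 9.38, against 10.88 on the naive array, and its probe may bind RNA of related class I genes. Tap1, the peptide transporter, had 11.58 on the vitamin C array and 10.89 on the conventional array, against 11.52 on the naive array. Nlrc5, the class I transactivator, had 11.71 and 10.81, against 12.54 on the naive array. For 13 of the 15 genes the vitamin C signal was above the conventional signal, and it was the closer of the 2 to the naive level for H2-K1, Tap1 and Nlrc5.

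Immediate early and activation genes were in part higher after the days in culture. Of 19 genes of the early activation and AP-1 list, 5 were higher and 2 lower, against 11.7% and 13.1% of all genes compared. The count of lower genes does not set the list apart. Nfil3 and Jun were not detected on the naive array and had 12.55 and 11.50 on the vitamin C array and 11.97 and 11.12 on the conventional array. Irf4, which scales with the strength of receptor signalling, had 13.80 and 13.86, against 9.10 on the naive array. Myc had 9.45 and 9.94, against 7.70 on the naive array. With its probes averaged, Myc was under 2-fold on the vitamin C array, at 0.92. Egr1 was 13.37 and 13.20, against 13.57 on the naive array, and Dusp2 was 3.80-fold and 2.53-fold lower, so not all genes of this kind were higher.

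Checkpoint and costimulatory receptors lay on both sides of the naive array. Of 19 compared, 8 were higher and 4 lower. Tnfrsf9 (4-1BB) had 12.25 and 12.34, against 8.04 on the naive array, and Tnfrsf4 (OX40) had 14.54 and 14.24, against 10.34. Lag3, an inhibitory receptor that binds MHC class II, had 11.51 on the vitamin C array and 10.42 on the conventional array, against 7.04 on the naive array. The lower members were Btla, Cd96, Cd27 and Cd160, which resting T cells carry or share with other lymphocytes. Cd27 had 12.50 and 12.87, against 14.60 on the naive array. Pdcd1, the PD-1 gene, was not detected on the naive array and had 7.15 and 6.78 on the iTreg arrays, bounds under 2-fold.

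Among effector genes, 12 of the 24 with a probe were detected, and of those 6 were higher and 1 lower. The chemokine genes Ccl4 and Ccl3 had 11.86 and 10.27 on the vitamin C array and 11.46 and 9.54 on the conventional array, and neither was detected on the naive array. Nkg7, a granule protein of cytotoxic cells and also an NK cell marker, had 11.23 on the vitamin C array and 12.93 on the conventional array, and was not detected on the naive array. Prf1, which encodes perforin, went the other way, with 10.66 and 11, against 13.51 on the naive array. Klrd1, another NK and CD8 marker, had 7.69 and 8.68, against 10.88 on the naive array. Markers of cytotoxic cells therefore differed in direction, and the part of other cells was not tested.

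Receptors for migration also lay on both sides of the naive array. Of 16 compared, 6 were higher and 3 lower, and in the authors' normalized values 3 were higher. Ccr6 and Ccr8, chemokine receptors of tissue-homing T cells, had 13.03 and 12.11 on the vitamin C array and 12.70 and 11.96 on the conventional array, and the naive array detected neither. Cd44, low by sort on naive cells, had 11.87 and 11.77, against 8.67 on the naive array, while 3 other Cd44 probes gave differences of 0.92 or less. Gpr183, a receptor that guides cells to the edge of the B cell follicle, was not detected on the vitamin C array and had 7.78 on the conventional array, against 11.57 on the naive array. Itgb7 and S1pr4 were between 2.95-fold and 5.41-fold lower across both arrays.

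Cell cycle genes were higher on both iTreg arrays. Of 24 DNA replication genes, 18 passed 2-fold upward and none downward, with medians of 1.88 on the vitamin C array and 1.6 on the conventional array. Of 23 mitosis and spindle genes, 20 were higher and none lower, with medians of 3.52 and 3.49. For 8 of these 20 and for 3 of the 18 replication genes the naive array did not detect the gene. Their differences are bounds, and these genes could not have been lower. Mcm10 and Chaf1a, which act at replication forks and in nucleosome assembly, were not detected on the naive array and were at least 18.5-fold higher on both iTreg arrays. Uhrf1, which brings DNMT1 to newly replicated DNA, had 13.20 and 13.05, against 9.21 on the naive array. Cdc45, a part of the replicative helicase, had 10.94 and 10.64, against 6.90 on the naive array. Probe averages gave log2 differences of 2.29 and 2.26 for Uhrf1 and of 2.12 and 1.94 for Cdc45. Pcna, in contrast, had 8.63 and 8.56, against 8.36 on the naive array. Birc5 (survivin) had 12.25 and 12.03, against 7.09 on the naive array, and Top2a, which untangles DNA before division, had 13.03 and 12.87, against 8.29. Cdk1, the mitotic kinase, was not detected on the naive array and had 11.45 and 11.36 on the iTreg arrays. Averaging all Cdk1 probes brought its differences to 0.50 and 0.65. In both lists every member with a difference between the iTreg arrays was higher on the vitamin C array, by a median log2 difference of 0.22 for replication and 0.19 for mitosis. This difference between the cultures was not tested.

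The windows of Cdk1 and Uhrf1 are shown as the highest-ranked members that hold the letters named for their lists, in the same format. In Cdk1 the capitals mark TTTGAA, the cell cycle homology region (CHR) bound by the MuvB complex in late cell cycle genes, and in Uhrf1 they mark TTTNNCGC, a form of the E2F site.
Cdk1, chr10:69352863-69353162, minus strand: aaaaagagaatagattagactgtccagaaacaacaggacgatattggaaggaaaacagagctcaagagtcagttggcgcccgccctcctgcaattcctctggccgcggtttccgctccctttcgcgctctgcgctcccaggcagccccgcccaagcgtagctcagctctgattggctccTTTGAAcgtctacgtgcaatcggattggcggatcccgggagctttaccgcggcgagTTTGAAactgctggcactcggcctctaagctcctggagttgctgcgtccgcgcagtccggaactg
Uhrf1, chr17:56303087-56303386, plus strand: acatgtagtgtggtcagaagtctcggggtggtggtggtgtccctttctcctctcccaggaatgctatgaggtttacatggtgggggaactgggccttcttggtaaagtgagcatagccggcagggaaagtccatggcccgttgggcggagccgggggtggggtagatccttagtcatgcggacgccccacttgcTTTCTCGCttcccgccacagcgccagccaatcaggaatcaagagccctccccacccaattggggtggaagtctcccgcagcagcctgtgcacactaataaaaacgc
The Cdk1 matches began 71 and 15 bases before the start, and the Uhrf1 match 56 bases before it. The CHR letters were in 16 of 20 mitosis genes with a window (80.0%), against 14% of compared genes and 17.9% of all windows. The E2F letters were in 9 of 22 replication genes (40.9%), against 10.2% of compared genes and 5.17% of all windows. Among the 758 higher genes with a window these shares were 18.1% for the CHR and 11.1% for the E2F site.

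**Figure D3:**
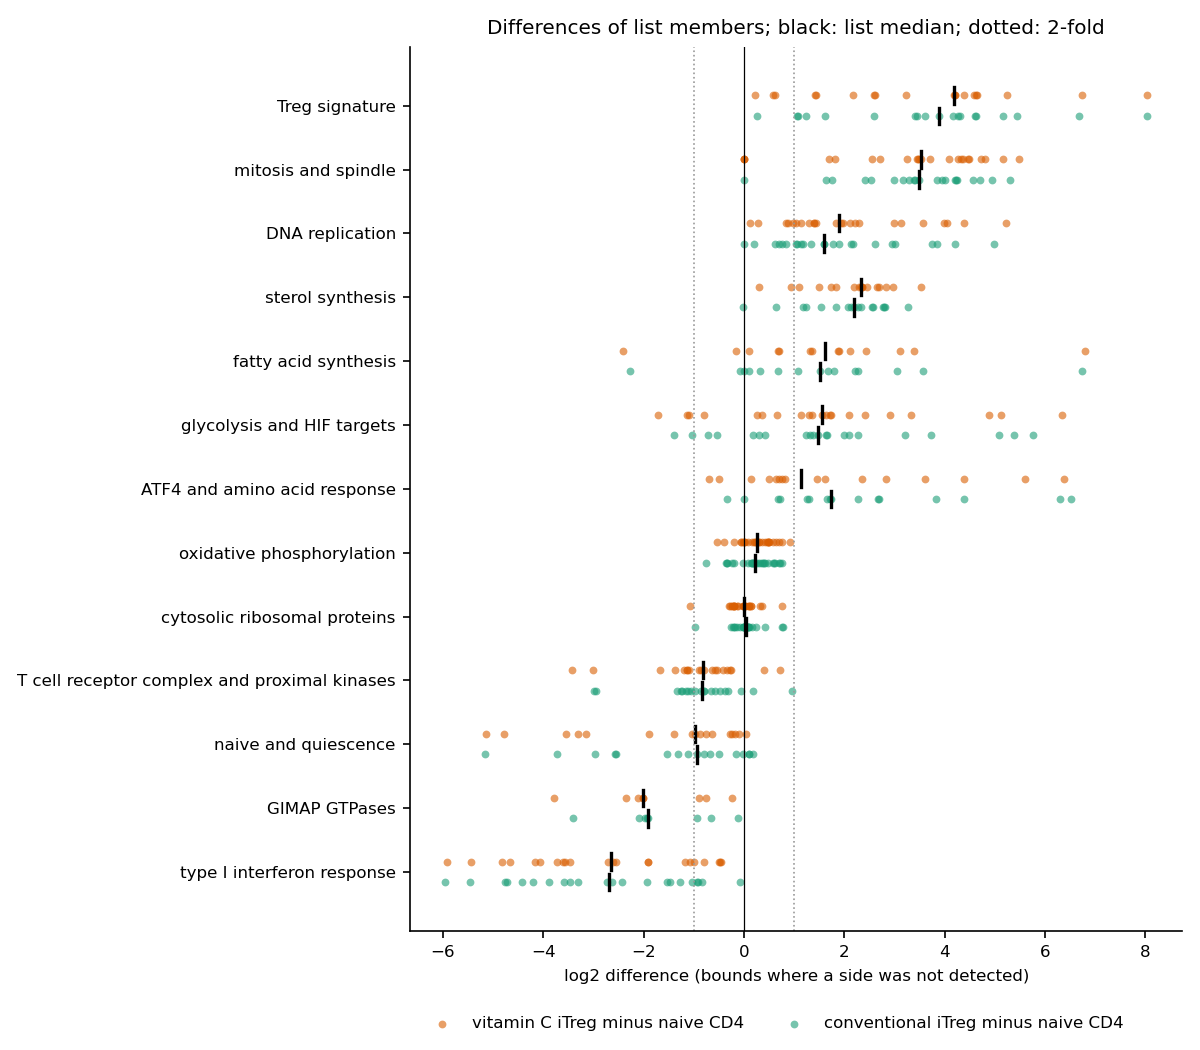
Log2 difference from the naive CD4 array (horizontal axis) of each compared member of 13 gene lists, with vitamin C iTreg above conventional iTreg in each pair. Black bars are list medians, such as 3.52 and 3.49 for mitosis and -2.66 and -2.69 for interferon genes, and dotted lines mark 2-fold.

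Regulators of the cell cycle entry point were less uniform. Of 18 genes of the cyclin and CDK inhibitor list, 7 were higher and none was lower on both arrays. E2f1 had 10.93 and 10.77, against 8.10 on the naive array. Cdkn1a, the CDK inhibitor p21, was not detected on the naive array and had 10.55 on the vitamin C array and 11.79 on the conventional array. Its log2 differences of 3.9 and 5.15 were 2.51 and 3.67 with its probes averaged. Both an activator and an inhibitor of cycling were thus higher. Ccne2 was at least 6.40-fold and 4.46-fold higher. Cdkn2c was 4.62-fold and 4.50-fold higher, although a second Cdkn2c probe gave 0.00 in both comparisons.

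Nucleotide and one-carbon metabolism followed in part. Of 21 nucleotide synthesis genes, 6 were higher and 2 lower. Tk1 and Rrm2, which make deoxynucleotides, were not detected on the naive array and were at least 15.8-fold higher on both iTreg arrays. Averaging the Tk1 probes brought its log2 differences to 1.79 and 1.81. Tyms, the thymidylate synthase, had 11.60 and 11.19, against 8.27 on the naive array, differences that averaging its probes brought to 1.81 and 1.59. The de novo purine genes Ppat, Gart and Atic were within 0.21 of the naive array, and Impdh1 and Ctps2 were between 2.37-fold and 3.36-fold lower. With its probes averaged, Impdh1 differed by -0.76 and -0.51 in log2, under 2-fold. Of 10 one-carbon and serine genes, 5 were higher and 1 lower. Phgdh, the first enzyme of serine synthesis, had 10.21 and 10.38, against 8.27 on the naive array. Gldc, which cleaves glycine, was not detected on the naive array and had 11.87 on the vitamin C array and 10.55 on the conventional array.

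The list of ATF4 targets and amino acid response genes was also in part higher on both arrays. ATF4 is a transcription factor whose translation increases when amino acids are scarce. Of 16 compared, 8 were higher on both and none was lower. For 4 of the 8 the naive array did not detect the gene, so these differences are bounds. The median was 1.13 on the vitamin C array and 1.73 on the conventional array, and 13 of the 16 had a higher signal on the conventional array. Per gene, the vitamin C array differed from the conventional array by a median of -0.29, and this difference was not tested. Asns, asparagine synthetase, was not detected on the naive array and had 12.25 on the vitamin C array and 13.17 on the conventional array, at least 5.60 and 6.52 in log2 above it, or 3.20 and 4.06 with its probes averaged. Nupr1, a stress-induced chromatin protein, had 13.02 and 12.94 and was not detected on the naive array. Cebpb had 13.90 and 13.91, against 9.52 on the naive array, and Eif4ebp1, a brake on cap-dependent translation, had 12.15 and 12.38, against 8.55. Atf4 itself had 11.34 and 11.56, against 10.85 on the naive array, under 2-fold. Vitamin C and conventional iTreg passed 2-fold for 8 and 12 of the genes, with Stc2, Sesn2, Gpt2 and Trib3 the 4 that passed on the conventional array alone. Of 17 aminoacyl-tRNA synthetase genes, 15 lay above the naive array on both. Of these 17, 3 reached 2-fold higher and Farsa 2-fold lower, against 11.7% and 13.1% of all genes compared. Of 9 amino acid transporter genes, Slc1a4 and Slc7a5 were higher, with Slc7a5, the large neutral transporter, at 13.08 and 13.69, against 11.69 on the naive array.

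The Nupr1 window is shown with matches to TGATGNAA, the C/EBP-ATF response element (CARE), in capitals, in the same format.
Nupr1, chr7:126625421-126625720, minus strand: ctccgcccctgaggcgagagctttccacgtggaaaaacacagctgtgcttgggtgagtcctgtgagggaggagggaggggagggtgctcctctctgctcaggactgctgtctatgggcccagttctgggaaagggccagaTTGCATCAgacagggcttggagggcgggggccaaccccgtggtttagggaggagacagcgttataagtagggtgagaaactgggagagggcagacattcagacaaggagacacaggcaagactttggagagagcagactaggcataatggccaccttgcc
The match began 110 bases before the start. The letters were in 5 of 15 genes of the ATF4 list with a window (33.3%) and in 4 of 11 synthetase genes (36.4%), against 2.93% of compared genes and 3.97% of all windows.

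Genes of sterol synthesis were higher nearly throughout. Sterol synthesis is switched on by SREBP2, which is released when membrane cholesterol falls. Of 17 members, 15 were higher by 2-fold or more on both iTreg arrays and none was lower, with medians of 2.33 on the vitamin C array and 2.19 on the conventional array. Cyp51, a sterol demethylase, had 12.70 and 12.46, against 9.19 on the naive array. Sqle, which forms squalene epoxide, had 12.99 and 12.81, against 10.03 on the naive array. Hmgcs1, the synthase that precedes HMG-CoA reductase, had 14.75 and 14.78, against 12.45 on the naive array. All 3 enzymes lay well above the naive array, with little between the cultures. Srebf2, the gene of SREBP2, had 12.08 and 11.89, against 10.35 on the naive array, and its brake Insig1 had 10.57 on both iTreg arrays, against 8.74. Ebp and Dhcr7, enzymes of the last steps, were the 2 members that did not reach 2-fold.

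The Cyp51 window is shown as the highest-ranked sterol gene with a CCAAT box, the site of NF-Y, which binds beside SREBP at sterol genes. Capitals mark CCAAT on either strand, in the same format.
Cyp51, chr5:4104648-4104947, minus strand: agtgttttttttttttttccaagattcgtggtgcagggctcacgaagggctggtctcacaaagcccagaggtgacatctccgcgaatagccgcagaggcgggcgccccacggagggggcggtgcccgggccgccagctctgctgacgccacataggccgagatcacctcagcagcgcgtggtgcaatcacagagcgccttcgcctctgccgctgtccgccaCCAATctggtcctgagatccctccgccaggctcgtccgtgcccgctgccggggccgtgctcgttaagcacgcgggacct
The match began 29 bases before the start. All 14 sterol genes with a window held CCAAT (100%), against 43.9% of compared genes and 37.4% of all windows. The sterol regulatory element written as TCACNCCAC was in 1 of the 14, the window of Hmgcs1, and in 1.28% of compared genes.

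Of 15 fatty acid synthesis genes compared, 9 were higher and 1 lower, with medians of 1.62 on the vitamin C array and 1.52 on the conventional array. Scd1, the stearoyl-CoA desaturase, was not detected on the naive array and had 13.44 and 13.39 on the iTreg arrays, at least 111-fold and 107-fold higher. Scd2 had 11.68 and 11.87, against 8.30 on the naive array, and Acsl3, which activates fatty acids, had 12.37 and 12.31, against 9.25. The Acsl3 differences were 1.79 and 1.68 in log2 with its probes averaged. Acly, which makes cytosolic acetyl-CoA from citrate, was 13.77 on both iTreg arrays, against 13.68 on the naive array. Acss2, which makes it from acetate, was lower, with 10.27 and 10.42, against 12.69 on the naive array, as was its mitochondrial relative Acss1 among the 12 lowest genes.

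Glycolysis and its regulators were higher in most members. Of 21 genes of the glycolysis and HIF list, 14 were higher and 2 lower, with medians of 1.55 on the vitamin C array and 1.47 on the conventional array. Hk2, an inducible hexokinase, had 11.81 and 12.06, against 6.68 on the naive array. Pfkp, the platelet-type phosphofructokinase, had 13.71 and 13.57, against 11.30 on the naive array, whereas the muscle-type Pfkm had 9.78 and 10.06, against 10.58. Ldha, which makes lactate, had 14.93 and 15.02, against 13.79 on the naive array. The glucose transporters also parted, with Slc2a1 at 12.38 and 12.30, against 10.83 on the naive array, and Slc2a3 at 10.07 and 10.46, against 11.18. Egln3, a prolyl hydroxylase that marks HIF proteins for degradation, was not detected on the naive array and had 12.97 on the vitamin C array and 12.41 on the conventional array. Its log2 differences of 6.33 and 5.76 were 2.89 and 2.05 with its probes averaged. Tpi1 was 10.0-fold and 9.21-fold higher by its brightest probe, 1 further probe gave 3.59 and 3.61 in log2, and another gave 0.00. Pdk1, a kinase that inhibits pyruvate dehydrogenase, was 3.26-fold and 2.65-fold lower.

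The Egln3 window is shown with ACGTG, the core of the hypoxia response element (HRE), in capitals, in the same format. These letters also lie within the E-box CACGTG, so a match counted below may be either. The Egln3 match follows a G and is not CACGTG.
Egln3, chr12:54203825-54204124, minus strand: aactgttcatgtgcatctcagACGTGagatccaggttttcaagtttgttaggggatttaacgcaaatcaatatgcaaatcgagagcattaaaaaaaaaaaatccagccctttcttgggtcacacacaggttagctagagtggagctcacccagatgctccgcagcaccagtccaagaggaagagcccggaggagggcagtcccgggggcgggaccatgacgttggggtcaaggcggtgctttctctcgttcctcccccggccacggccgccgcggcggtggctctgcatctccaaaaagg
The match began 229 bases before the start. The letters were in 16 of 20 genes of the glycolysis and HIF list with a window (80.0%), against 31.0% of compared genes and 19.6% of all windows, and in 30.5% of the higher genes with a window.

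**Figure D4:**
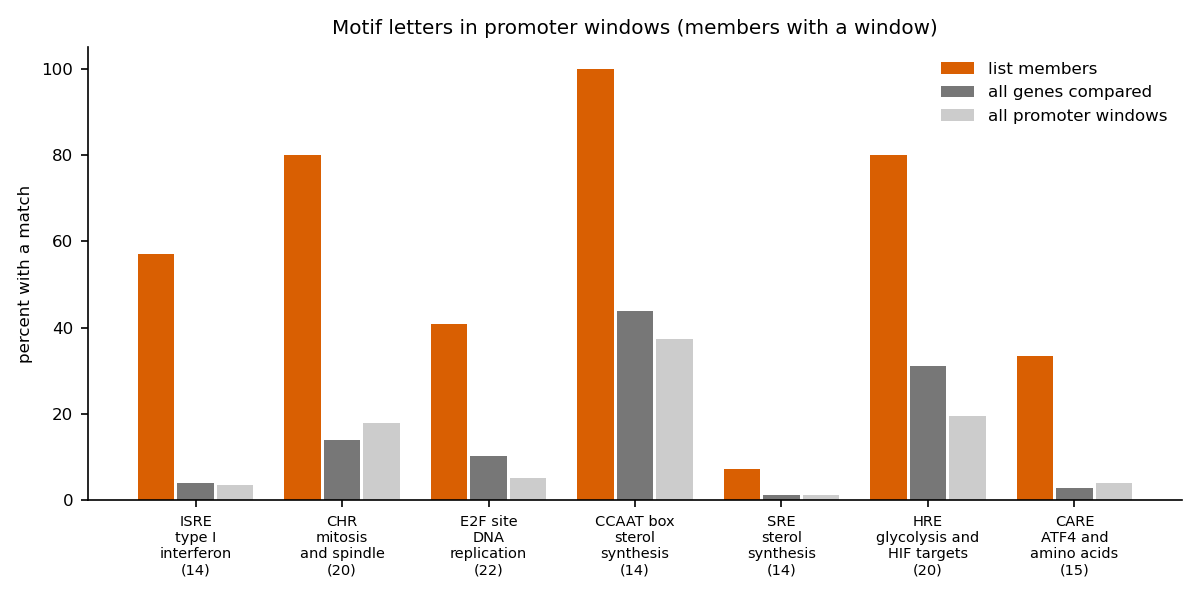
Percent with the letters of a motif on either strand: genes of the named list with a promoter window (orange, number in brackets), all compared genes (grey) and all windows (light grey). The ISRE is at 57.1% of interferon genes against 3.94% of compared genes, and the SRE letters are rare throughout.

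Of 14 translation initiation factor genes, 2 were higher on both iTreg arrays and none was lower. Among all genes compared, 11.7% were higher and 13.1% lower, so counts this small do not set a list apart. Several other groups had few or no members past 2-fold. None of 29 oxidative phosphorylation genes, 28 mitochondrial ribosomal protein genes, 26 cytosolic ribosomal protein genes, 26 ribosome biogenesis genes or 24 chaperone genes reached 2-fold on both iTreg arrays in either direction. Their median log2 differences lay between -0.07 and 0.44 on the vitamin C array and between -0.03 and 0.38 on the conventional array. Npm1, a nucleolar chaperone, had 15.13 and 15.23, against 14.81 on the naive array, and Ncl, nucleolin, had 11.03 and 11.06, against 11.08. Of 26 constitutive proteasome genes, 25 lay above the naive array on both arrays, and Psmd8 reached 2-fold. Of 19 TCA cycle genes, Idh1 was higher and Idh2 and Dlat lower. Idh2, the mitochondrial NADP-dependent isocitrate dehydrogenase, had 9.76 and 9.40, against 11.42 on the naive array, and cytosolic Idh1 had 9.79 and 9.69, against 8.58. The normalization set all arrays to 1 common distribution of signals, and a shift shared by most genes is invisible after it. Of 8 genes often used as references, Tfrc and Gapdh were higher on both, and Actb, Hprt, Tbp and Ywhaz differed from the naive array by 0.52 or less.

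Smaller families gave mixed counts, to be set beside 11.7% higher and 13.1% lower among all genes compared. Of 14 BCL2 family genes, 4 were higher and 1 lower. Pmaip1 (NOXA), which promotes apoptosis, was not detected on the naive array and had 9.68 and 10.42 on the vitamin C and conventional arrays, and Bcl2l2, which opposes it, had 10.18 on both, against 7.80. Bcl2a1d was 4.31-fold and 3.74-fold higher, and its probe may bind RNA of its close paralogs. Of 8 RGS genes, 3 were higher and 2 lower, with Rgs1 at 12.96 and 12.91, against 8.35 on the naive array, and Rgs14 detected on the naive array alone at 9.16. Of 22 lysosome and autophagy genes, 4 were higher, among them Gabarapl1, an ATG8 protein of the autophagosome, at 11.74 and 11.89, against 6.80 on the naive array. Of 15 metallothionein, annexin, S100 and galectin genes, 7 were higher and 1 lower. Anxa2 had 14.78 and 14.31, against 9.42 on the naive array, and Anxa6 had 11.82 and 12.10, against 13.32.

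Of 10 DNA methylation and demethylation genes compared, 3 were higher on both iTreg arrays and none was lower. These were Uhrf1, Gadd45b and Apex1, the base excision repair nuclease. Dnmt1, the maintenance methyltransferase, had 12.04 on the vitamin C array and 11.70 on the conventional array, against 11.42 on the naive array, under 2-fold. Dnmt3b had 10.15 and 10.46, against 10.87 on the naive array. Tet3 was not detected on the 3 arrays. Among T helper lineage factors, 3 of 10 were higher and 2 lower. Rora, a factor of the Th17 lineage, had 10.17 and 10.62, against 7.79 on the naive array, with probe averages 1.24 and 1.42 above it. Gata3, of the Th2 lineage, had 8.68 and 9.15, against 10.64, and Stat4, which relays IL-12 signals, had 8.05 and 9.09, against 12.23 on the naive array. With its probes averaged, Stat4 differed by -2.89 and -2.14 in log2, in place of -4.18 and -3.15.

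Genes past 2-fold on 1 iTreg array alone mostly had similar signals on the other. In vitamin C iTreg alone, 154 genes were higher and 209 lower, and 101 and 183 of them had iTreg signals within 1.5-fold of each other. In conventional iTreg alone, 107 were higher and 115 lower, and 64 and 89 of them were within 1.5-fold. At least 2-fold between the iTreg arrays was reached by 27 of the higher and 7 of the lower genes of the vitamin C array, and by 19 and 7 of those of the conventional array. Where 1 iTreg array did not detect a gene, the difference between the arrays is a lower bound. A gene that neither iTreg array detected entered none of these counts of distance. A gene past 2-fold on 1 array and short of it on the other is therefore seldom far from the other array, and the difference between the arrays was not tested.

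In vitamin C iTreg alone, Tbx21, the Th1 lineage factor T-bet, had 8.40, against 6.30 on the conventional array, and it was not detected on the naive array. Ubd, an interferon-gamma-induced ubiquitin-like protein, had 9.10 on the vitamin C array and was detected on neither of the other arrays. Hdc, histidine decarboxylase, had 9.23 on the vitamin C array and 6.60 on the conventional array, with 7.56 on the naive array between them. In each case the vitamin C array was the highest of the 3. Tmprss3, Clec2e and the Fc receptor chain Fcer1g, a myeloid marker, had 8.93, 8.50 and 8.20 on the vitamin C array, and none was detected on the naive array. Lower on the vitamin C array alone were Grasp, Ggt7, Snai3, Tubg2, Nme4 and Aqp9. Grasp had 7.49 on the vitamin C array and 9.15 on the conventional array, against 9.22 on the naive array. With its probes averaged, the Grasp difference on the vitamin C array was -0.73 in log2, in place of -1.73.

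In conventional iTreg alone, Gal, which encodes the neuropeptide galanin, had 9.31, against 7.01 on the vitamin C array, and was not detected on the naive array. Tnfrsf11b, H2-Bl and Slc6a12 had 8, 7.77 and 7.73 on the conventional array and were detected on no other of the 3 arrays. Reep6 had 6.92 on the vitamin C array and 8.36 on the conventional array, and was not detected on the naive array. With its probes averaged, the Reep6 difference on the conventional array was 0.09 in log2, in place of 1.71. Among the genes lower on the conventional array alone, Irf1, an interferon-induced factor of MHC class I genes, had 13.82 on the vitamin C array and 12.68 on the conventional array, against 14.07 on the naive array. Irgm2, an interferon-induced GTPase, had 12.16 and 11.07, against 12.59 on the naive array. Both vitamin C signals lay near the naive signal. App, Wdr78, As3mt and Mrvi1 were the other 4 named, with App, the amyloid precursor, at 8.38 and 6.89, against 9.36 on the naive array.

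**Figure D5:**
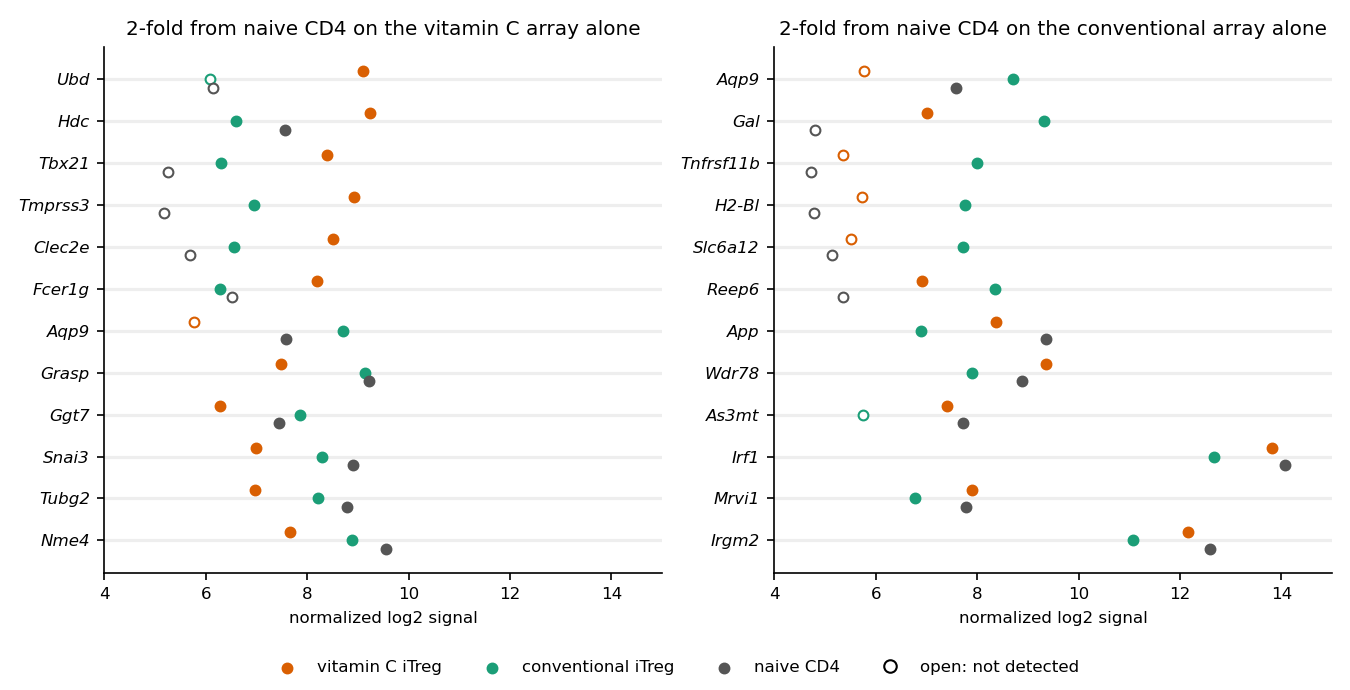
Normalized log2 signal (horizontal axis) on the vitamin C iTreg, conventional iTreg and naive CD4 arrays of genes that were 2-fold from naive on 1 iTreg array alone and 2-fold apart between the iTreg arrays, with open points where not detected. Irf1 and Irgm2 have vitamin C signals of 13.82 and 12.16 near the naive signals of 14.07 and 12.59.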

How the data were processed

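Per the file headers, the authors' signal table gave 25697 probes a linear intensity on each of 4 arrays, beside the deposited detection p-value. The submitters' processing notes name GenomeStudio 2011.1, with background and filter settings not given in the sources used here. Log2 values made up the authors' second deposited table, and quantile normalization of the log2 intensity gave them back within 5e-07. The intensities were background-corrected and quantile-normalized over the 4 arrays by the neqc function (limma 3.58.1, R 4.3.3) with an offset of 16, which shrinks differences of dim genes, and with negative controls that it infers from detection p-values.

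Each gene was read on its named probe with the highest mean over the 4 arrays. The array's gene table named 23978 probes, and a RefSeq table (GRCm38.p6) matched 23971 of them. Where a side was not detected (p-value of 0.01 or more), the higher of its own value and that array's lowest detected signal was used. A bound against the detected side was set to 0, and list medians include bounds. Differences are iTreg minus naive CD4 in log2. Python 3.11.15, numpy 2.4.6, pandas 2.3.3 and matplotlib 3.10.9 were used for all other steps, and the calling step was tested on simulated data.

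Members and gene lists were chosen with earlier results of these data known. Genes named are the 12 highest and 12 lowest detected on all 3 arrays, the 6 largest bounds in each direction, up to 4 members per list and direction, the 6 most different in each direction on 1 iTreg array alone, and Foxp3, Il2ra, Ctla4, Ikzf2, Myc and Dnmt1. Any other gene was named after its values were seen. No test was made, since each group had 1 array, and the arrays' number limits the precision. Alternatives were the background correction, the offset, the scaling, the detection rule, the fold limit and the handling of probes.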

Additional observations from a re-analysis of the deposited data

Results flagged for a closer look

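Aqp9, which encodes a channel for water and glycerol, was the 1 gene at least 2-fold from the naive CD4 array in opposite directions on the iTreg arrays. Its log2 signal was not detected on the vitamin C array, was 8.71 on the conventional array and was 7.59 on the naive array. The differences from the naive array were -1.40 (a bound) on the vitamin C array and 1.12 on the conventional array. With 1 array per group the difference between the cultures was not tested.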

How the results depend on the processing

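No count, list median or named gene that was past 2-fold turned its direction under the alternatives run. Limits of 1.5-fold and 3-fold gave 1482 and 606 genes higher on both arrays and 2051 and 443 lower. For vitamin C iTreg they gave 1712 and 688 higher and 2308 and 554 lower, and for conventional iTreg 1689 and 665 higher and 2301 and 494 lower. Asking for detection on all 3 arrays left 578 higher on both, 677 in vitamin C iTreg and 641 in conventional iTreg, by its construction fewer genes compared. Without the added background correction, which gives the authors' normalized values, 769 were higher and 745 lower on both, all among the reported ones, and named differences had a median ratio of 0.86 to the reported ones. Median centring gave 1089 and 864. In all, 57 alternative counts stayed within 1.5 times and 15 did not. The counts without the correction and from the authors' values, which are identical, both entered this tally. Of 170 named genes called on both arrays, 15 missed 2-fold without that correction (Foxp3, Lyz1, Cd79b, Maf, Cd160, Erap1, Ier2, Itgb1, Wars, Farsa, P4ha1, Idh1, Dlat, Lamp2 and Rgs19). With probes averaged 13 missed it (Foxp3, Cdk1, Myc, Tgfbr1, Bid, Impdh1, Erap1, Slc25a32, Mars1, Wipi1, Apex1, Cd79b and Lyz1). The cause was not tested. Among 193 named genes with a 2-fold difference, 81 moved by over 1.5-fold without the correction, 40 with probes averaged, 32 with detection at 0.05 and 44 with no detection filter. Detection on all 3 arrays left 11 of 15 interferon genes lower, and it left higher 12 of 12 mitosis, 4 of 8 ATF4, 4 of 9 metallothionein and annexin, 3 of 7 one-carbon, 2 of 11 STAT5, 2 of 12 early activation, 2 of 6 effector and 2 of 9 homing genes. With no detection filter 7 TGF-beta genes were higher, and in the authors' values 3 homing genes. Small list medians (TGF-beta, STAT5, MHC class I, checkpoint, ribosome, TCA, T helper, reference and myeloid lists) changed sign in at least 1 alternative. The brightest probe over the 3 arrays, chosen after seeing the data, gave 946 and 1060. No paired analysis was possible because each group had 1 array.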

Other observations

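The probes without a gene name held signals of the same kind. Of 1719 unnamed probes, 724 were detected on at least 1 of the 3 arrays, and both iTreg arrays lay above the naive CD4 array by 2-fold or more for 83 of them and below it for 102. Their genes were not analysed here.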
